A study of Mus musculus with 14 samples.

Results

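The MHC class I and class I-like genes described here are the 10 rows of the deposited gene table named H2-K1, H2-D1, H2-Q4, H2-Q10, H2-T10, H2-T22, H2-T23, H2-T24, H2-Bl and B2m, out of 57180 genes in all. They were chosen by gene name, and the family was chosen because an earlier analysis of the same counts had found H2-Bl, H2-T10 and H2-T24 higher in Homo livers and H2-Bl higher in Het livers. The levels and fold changes of these genes are therefore given as a description with no test. All 10 passed the filter on low counts, as did 16201 genes of the table.

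RNA was sequenced from whole liver of 14 mice kept on a normal chow diet, 4 labelled Homo for Pkd1, 4 labelled Het and 6 labelled WT. All 14 are labelled as littermates and all, WT included, carry Cre. Pkd1 encodes polycystin 1, the large membrane protein mutated in autosomal dominant polycystic kidney disease. Which Pkd1 allele was used, which promoter drives Cre and hence which liver cells carry the change are not stated, nor are strain, sex, age or litter. Each library comes from 1 numbered mouse, so the errors below measure the spread between these mice.

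MHC class I molecules consist of a polymorphic heavy chain held by the invariant light chain beta 2-microglobulin, the product of B2m. Classical heavy chains (H2-K1 and H2-D1) are made by nearly all nucleated cells and show peptides from the cell's own proteins to CD8 T cells, while the class I-like chains of the Q and T regions have narrower partners, among them NK cell receptors and gamma delta T cells. In the liver, hepatocytes make classical class I at modest levels and secrete the soluble Q10 chain into the blood, and resident immune and endothelial cells carry more class I per cell.

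Library totals lay between 18573739 and 28431875 estimated counts for Homo, between 22833853 and 26245475 for Het and between 25238140 and 40925973 for WT. Pkd1 averaged 25.3 ± 1.51 CPM in Homo livers (SD, n = 4), 32.2 ± 3.52 CPM in Het livers (n = 4) and 34.8 ± 2.77 CPM in WT livers (n = 6), where CPM is the count scaled to the TMM-adjusted library size. The log2 fold change of Pkd1 in Homo over WT was -0.46 ± 0.08 (SE, adjusted p = 0.0246, edgeR quasi-likelihood test), a call that was lost under 2 of 5 other settings and without any 1 of the 4 Homo livers or of WT 3, WT 4 and WT 6. Every Homo library lay below every WT library for Pkd1, a separation that 0.42% of the tested genes showed. At an adjusted p under 0.05, 0.222% of the tested genes were called in Homo against WT, 0.0556% in Het against WT and 0.0309% in Homo against Het. Of 6 listed hepatocyte markers, 5 were found by name. These 5 summed to 46897 to 72957 CPM in Homo, 49759 to 58773 CPM in Het and 50574 to 67192 CPM in WT livers.

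Of the 9 heavy chains, 5 lie in the T region of chromosome 17, in the order H2-T24, H2-T23, H2-T22, H2-Bl and H2-T10, with other genes between H2-T22 and H2-Bl and between H2-Bl and H2-T10, and the 3 that had been found higher are interleaved with 2 that had not. The same stretch of coding sequence of the 5 genes is given below, from the reference transcripts of GENCODE M21. It was taken where all 5 align without a gap, so it does not stand for the whole coding sequence. It covers 90 bases, and capitals mark bases that differ from H2-T10.
H2-T10: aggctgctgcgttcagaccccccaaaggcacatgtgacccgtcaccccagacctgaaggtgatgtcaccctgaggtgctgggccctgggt
H2-T22: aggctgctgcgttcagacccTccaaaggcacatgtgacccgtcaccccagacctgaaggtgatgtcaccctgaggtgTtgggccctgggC
H2-Bl: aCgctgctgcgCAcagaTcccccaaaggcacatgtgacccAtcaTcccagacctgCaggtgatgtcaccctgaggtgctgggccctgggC
H2-T24: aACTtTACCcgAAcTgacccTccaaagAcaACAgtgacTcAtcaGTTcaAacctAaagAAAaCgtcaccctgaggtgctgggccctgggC
H2-T23: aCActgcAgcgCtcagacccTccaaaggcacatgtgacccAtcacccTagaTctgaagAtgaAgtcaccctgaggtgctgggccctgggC
In these 90 bases H2-T22 differed from H2-T10 at 3 positions, H2-Bl at 8, H2-T23 at 11 and H2-T24 at 27. Over the whole coding sequence, H2-T10 was 96.9% identical in aligned bases to H2-T22, 74.6% to H2-Bl, 73.3% to H2-T23 and 66.1% to H2-T24. H2-Bl was closest to H2-D1 at 89.4%. Of the 31-base words in the transcripts of H2-T10, 50.7% also occur in transcripts of other genes, 47.6% in those of H2-T22, so the estimated counts of this pair depend on how shared reads were divided. The share was 21.3% for H2-Bl and 6.43% for H2-T24. H2-T10 and H2-Bl are annotated there as polymorphic pseudogenes, a class for loci that are intact in some strains and broken in the reference strain.

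**Figure D1:**
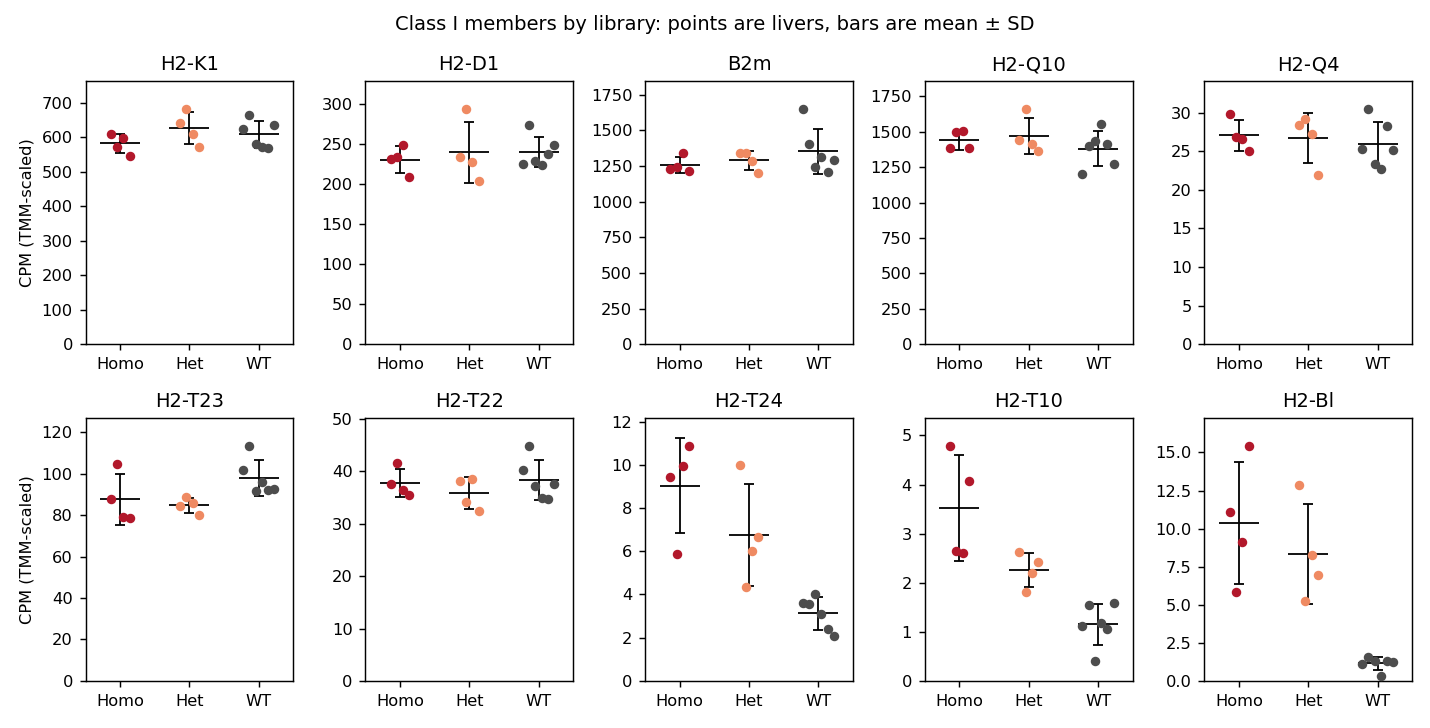
Level of each of the 10 genes in each liver, in TMM-scaled CPM on an axis that starts at 0, with Homo (n = 4), Het (n = 4) and WT (n = 6) from left to right. Points are single livers and bars are the mean ± SD. H2-T24, H2-T10 and H2-Bl are the panels in which the Homo and the Het points lie above all WT points, and in H2-T23 all Het points lie below all WT points.

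The classical heavy chains of Homo and of Het livers differed from WT by less than the spread between mice. H2-K1 was at 610, 571, 599 and 547 CPM in the 4 Homo livers, at 642, 682, 609 and 573 CPM in the 4 Het livers, and between 570 and 664 CPM with a median of 603 CPM in the WT livers. The 3 ranges overlapped, and the log2 fold change was -0.06 ± 0.07 in Homo over WT and 0.04 ± 0.07 in Het over WT (SE). In Homo over Het it was -0.11 ± 0.08.

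H2-D1, the second classical chain of the table, was at 231, 234, 249 and 209 CPM in Homo livers, at 234, 294, 228 and 204 CPM in Het livers, and between 224 and 274 CPM with a median of 234 CPM in WT livers. The highest and the lowest value of all both came from Het livers, and the ranges overlapped. In Homo over WT the log2 fold change was -0.06 ± 0.09, and it was 0.00 ± 0.09 in Het over WT. The sum of both classical chains averaged 813 ± 42.4 CPM in Homo, 866 ± 83.3 CPM in Het and 848 ± 54.8 CPM in WT livers.

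B2m, the light chain on chromosome 2 on which heavy chains depend for a stable fold at the cell surface, followed the same pattern. Its level was 1231, 1244, 1343 and 1214 CPM in Homo livers, 1339, 1340, 1285 and 1198 CPM in Het livers, and between 1211 and 1648 CPM with a median of 1302 CPM in WT livers. The top value came from 1 WT liver, WT 1, and the other 13 livers lay within the range from 1198 to 1407 CPM. The log2 fold change of B2m was -0.10 ± 0.08 in Homo over WT and -0.07 ± 0.08 in Het over WT, and -0.04 and -0.01 without WT 1.

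Of the Q region, H2-Q10 encodes the soluble class I chain that hepatocytes secrete. It was at 1383, 1497, 1504 and 1383 CPM in Homo livers, at 1442, 1659, 1412 and 1367 CPM in Het livers, and between 1204 and 1552 CPM with a median of 1405 CPM in WT livers. The ranges overlapped, with a log2 fold change of 0.06 ± 0.08 in Homo over WT and 0.09 ± 0.08 in Het over WT.

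H2-Q4, a class I-like chain of the same region, was at 29.8, 26.8, 26.6 and 25.0 CPM in Homo livers, 28.3, 29.1, 27.2 and 21.97 CPM in Het livers, and between 22.7 and 30.4 CPM with a median of 25.2 CPM in WT livers. The WT range took in all 4 Homo values and 3 of the 4 Het values. Its log2 fold change was 0.07 ± 0.10 in Homo over WT and 0.04 ± 0.10 in Het over WT.

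In the T region, H2-T23 encodes Qa-1, which shows leader peptides of other class I chains to the CD94-NKG2 receptors of NK cells. It was at 87.9, 105, 79.1 and 78.9 CPM in Homo livers, at 84.2, 89.0, 85.9 and 80.1 CPM in Het livers, and between 91.7 and 113 CPM with a median of 94.3 CPM in WT livers. All 4 Het livers and 3 of the 4 Homo livers lay below the lowest WT liver. The separation of every Het below every WT library was shown by 0.506% of the tested genes. The log2 fold change was -0.16 ± 0.09 in Homo over WT and -0.21 ± 0.09 in Het over WT, and neither was among the calls.

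H2-T22, whose product binds a subset of gamma delta T cell receptors without peptide, was at 37.6, 41.7, 36.4 and 35.5 CPM in Homo livers, at 38.2, 34.1, 38.6 and 32.4 CPM in Het livers, and between 34.8 and 44.9 CPM with a median of 37.4 CPM in WT livers. The Homo values lay inside the WT range, with a log2 fold change of -0.02 ± 0.08 in Homo over WT and -0.10 ± 0.08 in Het over WT.

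H2-T10 is the near-identical partner of H2-T22, with a product that binds the same kind of receptor. It was at 4.79, 2.66, 2.61 and 4.06 CPM in Homo livers, at 2.63, 1.82, 2.19 and 2.41 CPM in Het livers, and between 0.414 and 1.59 CPM with a median of 1.15 CPM in WT livers. Every Homo and every Het liver lay above every WT liver, as for 0.735% of the tested genes in Homo and 0.697% in Het. On the log2 scale the fold change was 1.63 ± 0.29 in Homo over WT, a 3.10-fold difference, and 0.99 ± 0.30 in Het over WT, a 1.99-fold difference. In WT libraries these levels rest on 16.9 to 42.6 estimated counts, against 64.7 to 145 in Homo and 39.6 to 62.7 in Het libraries.

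H2-T24, at the other end of the 5 T region members, was at 9.44, 5.88, 9.94 and 10.9 CPM in Homo livers, at 9.98, 4.37, 6.01 and 6.63 CPM in Het livers, and between 2.08 and 4.02 CPM with a median of 3.34 CPM in WT livers. The groups did not overlap with WT, and the smallest gap was between the lowest Het liver, Het 2, and the highest WT liver, WT 3. Its log2 fold change was 1.52 ± 0.23 in Homo over WT (2.87-fold) and 1.10 ± 0.24 in Het over WT (2.15-fold).

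H2-Bl, a class I-like gene named for the blastocyst, differed most of the 10. It was at 11.1, 5.84, 9.15 and 15.4 CPM in Homo livers, at 12.9, 5.23, 8.28 and 6.98 CPM in Het livers, and between 0.345 and 1.54 CPM with a median of 1.27 CPM in WT livers. The lowest mutant liver, Het 2, had 5.23 CPM, against 1.54 CPM in WT 2, the highest WT liver. Its log2 fold change was 3.16 ± 0.33 in Homo over WT (8.93-fold) and 2.85 ± 0.33 in Het over WT (7.21-fold). The Homo libraries held 143 to 335 estimated counts of H2-Bl, the Het libraries 115 to 308 and the WT libraries 9.48 to 55.1. Set against H2-T22, the member before it in that order, in the same library, H2-Bl reached 14.0% to 43.5% of the H2-T22 CPM in Homo, 15.4% to 33.7% in Het and 0.986% to 3.67% in WT livers.

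Homo and Het livers overlapped for each of the 10 genes. The log2 fold change in Homo over Het was 0.31 ± 0.34 for H2-Bl, 0.64 ± 0.32 for H2-T10 and 0.42 ± 0.26 for H2-T24, and ran from -0.11 to 0.08 for the other 7. H2-Bl and H2-T24 had the same lowest and highest livers within the mutant groups. Homo 2 and Het 2 were lowest in their groups and Homo 4 and Het 1 highest for both genes. The other livers of each mutant group stood in opposite order for these genes. For H2-T10, Het 2 and Het 1 were again lowest and highest, while Homo 3 and Homo 1 were lowest and highest among Homo livers. In WT livers the order differed. H2-Bl was lowest in WT 4 and highest in WT 2, and H2-T24 lowest in WT 6 and highest in WT 3. H2-T10 was lowest in WT 3 and highest in WT 6.

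**Figure D2:**
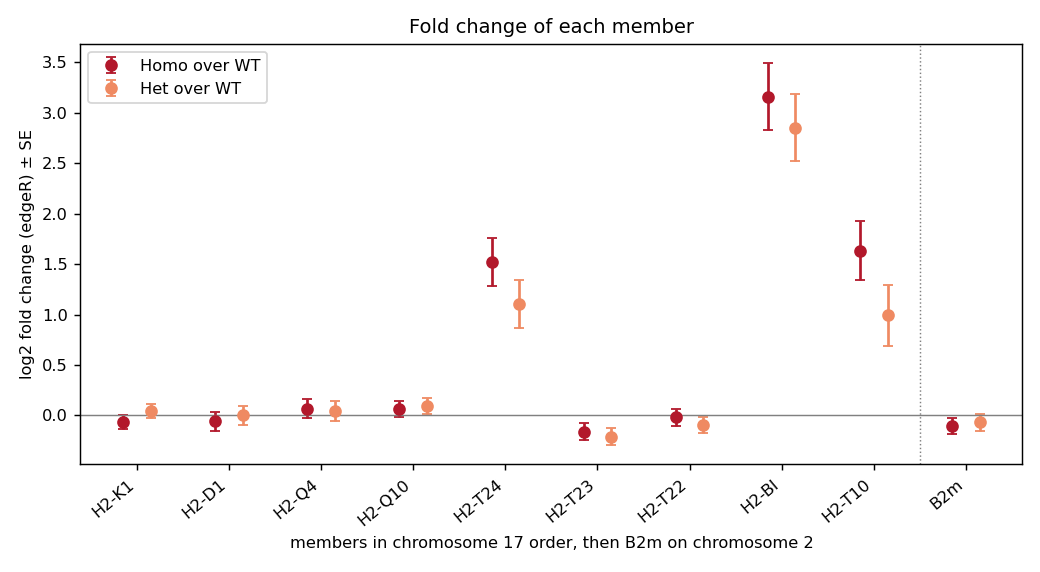
Log2 fold change (edgeR) of each gene in Homo over WT and in Het over WT, with bars of ± 1 SE, in their order along chromosome 17 with B2m on chromosome 2 last. Both comparisons share the 6 WT libraries. H2-T24, H2-Bl and H2-T10 stand between 0.99 and 3.16, and H2-T23 and H2-T22, which lie between H2-T24 and H2-Bl on the chromosome, stand between -0.21 and -0.02.

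Counted over the family, 3 of 10 members were called higher in Homo against WT (H2-Bl, H2-T10 and H2-T24), where 0.16% of all tested genes were called higher, and 1 of 10 in Het against WT (H2-Bl), where 0.0556% were called higher. Since this contrast chose the family, nothing is read from these counts. The H2-T10 call was lost without any 1 of 5 libraries, Homo 1, Homo 4, WT 1, WT 4 or WT 5, where the count fell to 2, and DESeq2 called H2-T24 in Het against WT as well. Every Homo liver lay above every WT liver for the same 3 members as every Het liver did, in comparisons that share the WT livers. Of all tested genes, 0.735% were so separated in Homo and 0.697% in Het. Since the family was chosen for these 3 members, nothing is read from their agreement. The median log2 fold change over the 10 members was 0.02 in Homo over WT and 0.04 in Het over WT, with 5 and 7 members above 0. Over all 16201 tested genes the median was 0.00 in both, with 8191 above 0 in Homo over WT and 8100 in Het over WT.

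The summed level of the 10 members did not separate the genotypes. It was 3637, 3734, 3858 and 3522 CPM in Homo livers, 3834, 4137, 3702 and 3492 CPM in Het livers, and between 3590 and 3938 CPM in WT livers. The means were 3688 ± 143 CPM in Homo, 3791 ± 270 CPM in Het and 3746 ± 149 CPM in WT livers (SD), a ratio of 0.984 in Homo over WT and 1.01 in Het over WT. Both differences are smaller than the spread between mice, and the sign turned with library totals alone for scaling (log2 ratio 0.02 in Homo over WT and -0.01 in Het over WT) and, in Homo over WT, with the 9 heavy chains alone (0.02). In Het over WT it also turned without H2-Q10 (-0.03), per kilobase (-0.01) and without Het 2 (-0.03).

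Abundant members set this sum. B2m made up 32.4% to 42.5% of it across the 14 livers, H2-Q10 31.1% to 40.6%, H2-K1 15.01% to 17.6% and H2-D1 5.82% to 7.10%. H2-Bl, H2-T10 and H2-T24 together summed to 22.9 ± 6.72 CPM in Homo, 17.3 ± 5.87 CPM in Het and 5.43 ± 0.791 CPM in WT livers, against 125 ± 14.9 CPM in Homo, 121 ± 5.47 CPM in Het and 136 ± 12.0 CPM in WT livers for H2-T22 and H2-T23. The sum of the 5 T region members was 148 ± 10.0 CPM in Homo, 138 ± 8.33 CPM in Het and 142 ± 12.7 CPM in WT livers.

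Per kilobase of the longest annotated transcript, the order of levels was B2m, H2-Q10, H2-K1, H2-D1, H2-T23, H2-T22 and H2-Q4 in all 3 genotypes, with no overlap between neighbours. B2m stood at 1463 ± 67.3 CPM per kilobase in Homo, 1500 ± 77.7 in Het and 1572 ± 186 in WT livers, and H2-Q4 at 15.1 ± 1.11 in Homo, 14.9 ± 1.80 in Het and 14.4 ± 1.65 in WT livers. The places below them differed by genotype. H2-Bl followed H2-Q4 in Homo livers at 9.11 ± 3.52 CPM per kilobase and in Het livers at 7.33 ± 2.87, above H2-T24 and H2-T10. In WT livers H2-T24 (1.44 ± 0.346) overlapped H2-Bl (1.01 ± 0.365), and H2-Bl overlapped H2-T10, while H2-T24 lay above H2-T10 without overlap.

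The T region holds further genes between H2-T24 and H2-T3, 24 in the table, of which 10 had enough counts to be tested. The 5 of them that are not members (H2-T-ps, Gm19684, Gm10499, Gm8909 and Gm20478) were looked at after their values were seen. Gm10499, Gm8909 and Gm20478 had at most 5.48 estimated counts in any WT library, under the count minimum of 10. Gm19684 had at most 9.50 in any WT library. H2-T-ps had 15.4 in WT 5 and at most 8.08 in the other WT libraries. All 5 so passed the filter mainly through the Homo and Het libraries, which fixes much of their separation. The pseudogene H2-T-ps averaged 0.924 ± 0.377 CPM in Homo, 0.912 ± 0.316 CPM in Het and 0.207 ± 0.163 CPM in WT livers. Gm10499, an annotated transcribed pseudogene that shares 9.45% of the 31-base words of H2-Bl, was at 0.449 to 1.54 CPM in Homo and at 0.388 to 0.710 CPM in Het livers and had 0 counts in all 6 WT libraries. Gm8909 averaged 0.820 ± 0.458 CPM in Homo, 0.675 ± 0.305 CPM in Het and 0.0622 ± 0.0415 CPM in WT livers.

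**Figure D3:**
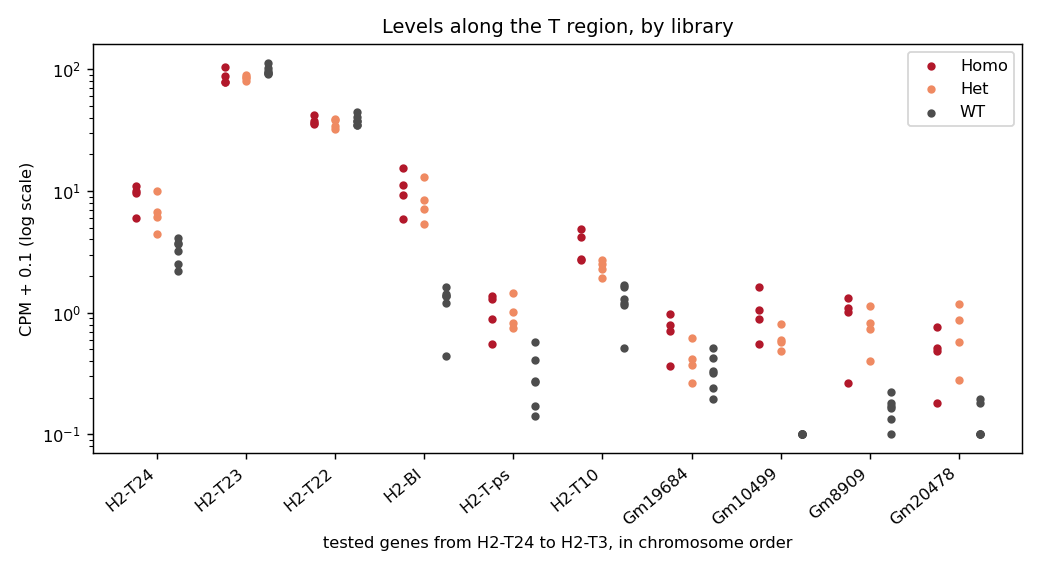
Level in each liver of the 10 tested genes from H2-T24 to H2-T3, in chromosome order, as CPM + 0.1 on a log axis, with Homo, Het and WT side by side for each gene. H2-T23 and H2-T22, the 2 most abundant, have overlapping Homo and WT points, and Gm10499 is at 0 CPM in every WT liver, drawn at the bottom of the axis.

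Several of these genes overlap others on the annotation. An antisense gene, A930015D03Rik, overlaps H2-T22, H2-T23 and H2-T24, the antisense gene BC023719 and the protein-coding model Gm7030 overlap H2-T10, Gm11131 lies antisense to H2-Q4, and Patl2 lies opposite B2m. Whether the counting used strand is not given in the sources used here, so reads of a gene and of its antisense partner cannot be told apart. BC023719 had at most 4.46 estimated counts in any library and Gm7030 at most 1.01.

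The genes with the pattern most like H2-Bl over the 14 livers, by Pearson r of log2 CPM, were Gm10499 (r = 0.953), Pla2g7 (0.948), Gm8909 (0.942), Gm10503 (0.939) and Gm50252 (0.939). H2-Bl was chosen with its genotype difference known, so genes ranked by likeness to it share that difference. Gm10499, Gm8909, Gm10503 and Gm50252 had at most 0.146 CPM in any WT liver. They passed the filter through the Homo and Het libraries, which fixes much of their r. All 5 are annotated on chromosome 17, as are Pkd1 and the 9 heavy chains. The share of all tested genes on that chromosome was not counted, so nothing is read from this. Pla2g7, which encodes the secreted platelet-activating factor acetylhydrolase, averaged 6.84 ± 1.70 CPM in Homo, 6.06 ± 1.95 CPM in Het and 2.59 ± 0.549 CPM in WT livers. Gm10503, an annotated antisense transcript, averaged 4.30 ± 0.523 CPM in Homo, 2.31 ± 1.37 CPM in Het and 0.0094 ± 0.0147 CPM in WT livers. Among the members, H2-T24 (r = 0.888) and H2-T10 (0.795) were most like H2-Bl, and H2-T23 had the most opposite pattern (-0.630). These values describe 14 points that share the difference between genotypes.

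The member sum had other companions, none above r = 0.805. They were Evi2b (0.805), a membrane protein of blood cells, Haus8 (0.798), a subunit of the augmin complex, Tcirg1 (0.763), a subunit of the vacuolar proton pump, Rbm17 (0.762), a splicing factor, and Cfhr3 (0.759), annotated as a pseudogene of the complement factor H family. These 5 lie on 5 different chromosomes, none of them chromosome 17, and Homo and WT livers overlapped for each. They were picked as the highest r among all tested genes. How high r would run among unrelated genes was not tested, so nothing is read from this list or from its chromosomes.

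Light and heavy chains were also compared from liver to liver. Over all 14 livers B2m and the sum of the 9 heavy chains gave a Pearson r of -0.02 (permutation p = 0.947, adjusted 0.947) and a Spearman rho of 0.50 (p = 0.0726, adjusted 0.109). Without the 2 livers farthest from the median of the heavy chain sum, Het 2 and WT 1, r was 0.75 (p = 0.0064, adjusted 0.0384) and rho 0.86 (p = 0.00068, adjusted 0.00408), so the value rests on which livers enter. Within the 6 WT livers r was -0.43 (exact permutation p = 0.385, adjusted 0.565) and rho was -0.03.

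With H2-K1 and H2-D1 alone as the heavy chains, r over the 14 livers was 0.49 (permutation p = 0.0811, adjusted 0.207) and rho 0.73 (p = 0.0041, adjusted 0.0123). Without Het 2 and WT 2, the 2 farthest livers on that measure, r was 0.49 (p = 0.103, adjusted 0.207) and rho 0.66 (p = 0.0223, adjusted 0.0445). Within the 6 WT livers r was 0.38 (exact permutation p = 0.471, adjusted 0.565) and rho 0.43 (p = 0.419, adjusted 0.503). The p-values of these 6 relations, all two-sided, were adjusted over them with Benjamini-Hochberg, apart for r and for rho. Outside this adjustment, B2m and the 9 heavy chains were compared over the 14 livers with library totals alone for scaling. There r was 0.175 (permutation p = 0.578) and rho 0.327 (permutation p = 0.253). The Homo and Het groups, with 4 livers each, are too small for a value of their own.

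**Figure D4:**
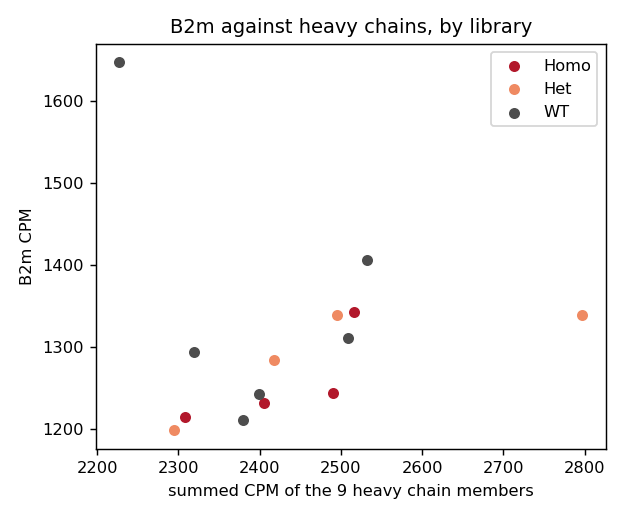
B2m CPM (vertical axis) against the summed CPM of the 9 heavy chains (horizontal axis), with 1 point for each of the 14 livers, coloured by genotype. WT 1 stands alone at the upper left, with 1648 CPM of B2m and the lowest heavy chain sum, and Het 2 stands alone at the right, with the highest sum, 2797 CPM.

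The genes that work with class I were taken as 5 lists of 98 genes, of which 75 were tested. Across the 5 lists, edgeR called 0 genes in Homo against WT, 0 in Het against WT and 0 in Homo against Het, and DESeq2 also called 0 in each. At an unadjusted p under 0.05, 7 of the 75 were counted in Homo against WT, 4 in Het against WT and 8 in Homo against Het. Of all 16201 tested genes, 766, 756 and 827 were counted in the same contrasts. The smallest adjusted p in edgeR was 0.893 in Homo against WT, 0.693 in Het against WT and 0.916 in Homo against Het.

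Other class I and class I-like genes gave 16 tested of 31, with a median log2 fold change of -0.09 in Homo over WT and 0.02 in Het over WT. H2-Q7, the Qa-2 antigen, averaged 62.9 ± 9.32 CPM in Homo, 56.0 ± 10.5 CPM in Het and 51.2 ± 8.00 CPM in WT livers (log2 fold change in Homo over WT 0.30 ± 0.14). Hfe, the class I-like regulator of iron uptake that binds the transferrin receptor, averaged 20.3 ± 0.873 CPM in Homo, 22.7 ± 0.529 CPM in Het and 22.2 ± 0.704 CPM in WT livers. H2-Q2 averaged 0.732 ± 0.264 CPM in Homo, 1.13 ± 0.479 CPM in Het and 1.02 ± 0.119 CPM in WT livers.

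The peptide loading list held the immunoproteasome, the TAP transporter and the chaperones of the loading complex, and all 14 genes were tested. The median log2 fold change was 0.02 in both Homo over WT and Het over WT, and 8 and 7 of 14 lay above 0. Psmb9, an immunoproteasome subunit, averaged 10.2 ± 1.60 CPM in Homo, 8.45 ± 1.22 CPM in Het and 8.14 ± 1.55 CPM in WT livers. Tapbp, the tapasin that bridges class I to the transporter, averaged 60.4 ± 1.94 CPM in Homo, 61.9 ± 5.65 CPM in Het and 54.7 ± 4.41 CPM in WT livers, and Psmb10 averaged 21.4 ± 2.65 CPM in Homo, 20.7 ± 2.24 CPM in Het and 18.9 ± 1.93 CPM in WT livers.

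Regulators of class I transcription (NLRC5, the RFX and NF-Y factors that bind the class I promoter, the IRF and STAT factors and NF-kB) were all tested, 16 genes with a median log2 fold change of -0.07 in Homo over WT and -0.03 in Het over WT. Nfya averaged 9.69 ± 0.965 CPM in Homo, 9.99 ± 0.102 CPM in Het and 11.2 ± 1.17 CPM in WT livers. Nfyc averaged 17.98 ± 1.02 CPM in Homo, 15.5 ± 2.26 CPM in Het and 15.8 ± 1.08 CPM in WT livers, and Rfxank 8.21 ± 0.985 CPM in Homo, 10.4 ± 1.23 CPM in Het and 9.43 ± 1.29 CPM in WT livers. None of the 3 was called.

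Promoters of the members carry letters that these factors are known to bind, and 7 of the 10 members had an entry in the RefSeq promoter table (GRCm38.p6, 250 bases before to 50 after each start). H2-T10, H2-T24 and H2-Bl had none. The windows of 50 bases below show the NF-kB element next to the IRF element in both classical chains, with H2-T22 and B2m for comparison, and capitals mark either element. H2-K1 is chr17:34000415-34000464 on the minus strand, H2-D1 is chr17:35262917-35262966 on the plus strand, H2-T22 is chr17:36042911-36042960 on the minus strand and B2m is chr2:122147523-122147572 on the plus strand.
H2-K1: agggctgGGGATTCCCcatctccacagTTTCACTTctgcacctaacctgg
H2-D1: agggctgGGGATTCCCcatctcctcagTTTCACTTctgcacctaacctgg
H2-T22: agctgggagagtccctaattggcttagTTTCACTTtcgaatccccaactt
B2m: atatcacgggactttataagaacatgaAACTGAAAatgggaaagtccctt
Both strands were searched, and the marked elements do not overlap. GGGATTCCC stood in 2 of the 7 promoters, H2-K1 and H2-D1, and in 0.311% of all 27025 promoters of the table. Only these exact letters were searched for NF-kB, so close variants were not counted. H2-Q4, not printed here, has gggatttccc at the same place before its IRF letters. Lower-case letters therefore do not show that an NF-kB element is absent. The IRF letters AANNGAAA stood in 7 of 7 and in 21.6% of all promoters, and the letters CCAAT, bound by NF-Y, in 6 of 7 (not H2-Q10) and in 34.5% of all promoters. A match is a description of letters and not a shown binding site.

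Interferon-stimulated genes outside the MHC, 26 tested of 27, had a median log2 fold change of 0.08 in Homo over WT with 16 above 0, of -0.13 in Het over WT with 5 above 0, and of 0.16 in Homo over Het with 22 above 0. Over all 16201 tested genes, 8191 lay above 0 in Homo over WT, 8100 in Het over WT and 8176 in Homo over Het. Oas1a, an antiviral 2-5A synthetase, averaged 4.34 ± 0.867 CPM in Homo, 2.60 ± 0.175 CPM in Het and 3.03 ± 0.639 CPM in WT livers (log2 fold change in Homo over WT 0.52 ± 0.18, adjusted p = 0.893, edgeR). Oas2 of the same family averaged 5.43 ± 0.632 CPM in Homo, 5.03 ± 0.391 CPM in Het and 4.45 ± 0.481 CPM in WT livers. Cmpk2, a mitochondrial nucleotide kinase induced by interferon, averaged 4.30 ± 0.414 CPM in Homo, 3.48 ± 0.753 CPM in Het and 3.42 ± 0.433 CPM in WT livers.

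**Figure D5:**
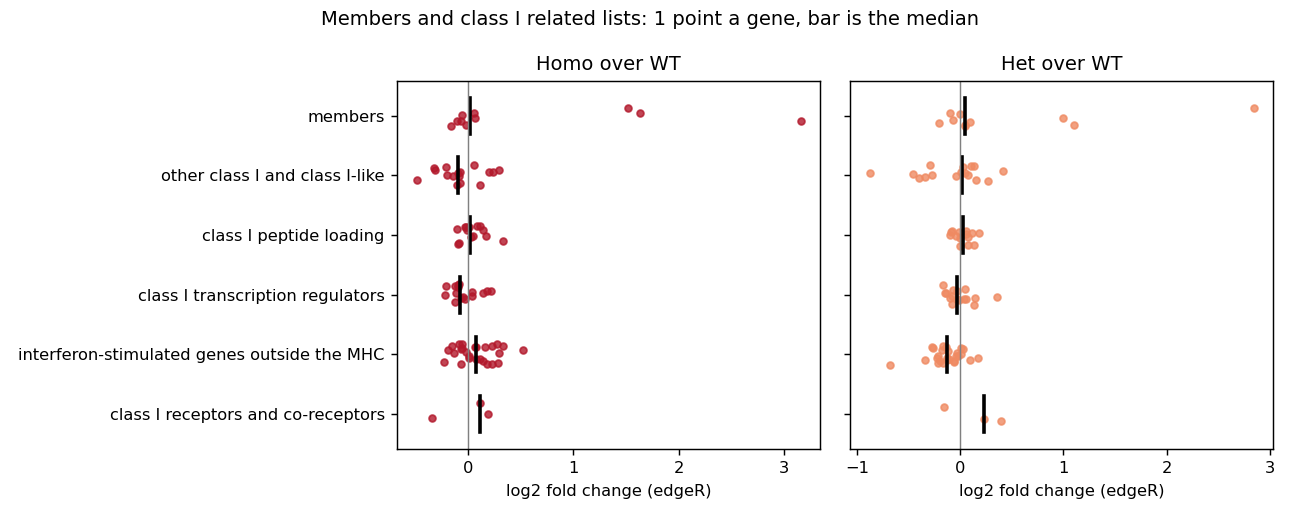
Log2 fold change (edgeR) of each gene of the family and of the 5 class I related lists, in Homo over WT on the left and in Het over WT on the right, with 1 point per gene and a black bar at the median of each list. H2-Bl, H2-T10 and H2-T24 stand to the right of all other points in both panels, and the list points lie between -0.88 and 0.52.

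Receptors of class I and related receptors were sparse in whole liver. Only 3 of 10 passed the filter on low counts, and Cd8a, Cd8b1, Klrd1 and Klrc1 were among the 7 that did not. Pirb, an inhibitory receptor for class I on myeloid and B cells, averaged 7.25 ± 1.22 CPM in Homo, 8.79 ± 0.786 CPM in Het and 6.67 ± 0.534 CPM in WT livers (log2 fold change in Het over WT 0.40 ± 0.11, adjusted p = 0.693, edgeR). Lilrb4a, an inhibitory receptor of myeloid cells, averaged 4.52 ± 0.848 CPM in Homo, 6.73 ± 0.542 CPM in Het and 5.72 ± 2.19 CPM in WT livers. Klrk1, the activating receptor NKG2D, averaged 1.88 ± 0.379 CPM in Homo, 1.47 ± 0.402 CPM in Het and 1.64 ± 0.302 CPM in WT livers.

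Class I levels differ between cell types, and in RNA from whole liver fewer cells of a type and less RNA per cell cannot be told apart. The 12 lymphocyte markers summed to 34.7 to 44.0 CPM in Homo, 33.5 to 37.3 CPM in Het and 20.2 to 33.9 CPM in WT livers. The 9 Kupffer cell markers summed to 245 to 265 CPM in Homo, 206 to 252 CPM in Het and 211 to 251 CPM in WT livers, and the 6 sinusoidal endothelial markers to 275 to 335 CPM in Homo, 276 to 323 CPM in Het and 250 to 296 CPM in WT livers. The 5 stellate cell markers summed to 256 to 296 CPM in Homo, 204 to 298 CPM in Het and 218 to 317 CPM in WT livers, the 5 cholangiocyte markers to 20.5 to 66.7 CPM in Homo, 27.8 to 36.1 CPM in Het and 25.5 to 36.1 CPM in WT livers, and the 5 dendritic cell markers to 3.25 to 4.54 CPM in Homo, 3.30 to 4.13 CPM in Het and 2.51 to 5.33 CPM in WT livers. Log2 fold changes above 0 in Homo over WT were found for 6 of 8 tested lymphocyte, 8 of 9 Kupffer cell, 5 of 6 endothelial, 1 of 5 stellate cell, 3 of 5 cholangiocyte and 2 of 3 dendritic cell markers. In Het over WT they were found for 5, 6, 5, 2, 2 and 2 markers of the same lists. For comparison, 8191 of all 16201 tested genes lay above 0 in Homo over WT and 8100 in Het over WT. In each of these lists, 0 markers were called in Homo against WT, in Het against WT and in Homo against Het. Whether the counts above 0 exceed chance was not tested, so no gain of a cell type is read from them. No marker of these lists was at 0 in all 14 livers. The part of these cells in the levels of H2-Bl, H2-T10 and H2-T24 was not tested.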

How the data were processed

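Whole liver RNA of 14 mice was extracted with Trizol and the RNeasy mini kit and made into libraries with a NuGen Ovation mouse kit, per the labels' protocols. The authors deposited a table of estimated counts per Ensembl gene. STAR and Salmon on GRCm39 are listed, per the submitters' processing notes, while roles, versions, annotation and strand use are not given in these sources. No pair of libraries held identical values.

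Counts were rounded (6.36% to 8.59% of values per library were fractional) and filtered with filterByExpr of edgeR 4.0.16 in R 4.3.3 (count minimum 10, total minimum 15). They were scaled with TMM and fitted with all 14 libraries in a quasi-likelihood model with a contrast for each pair of genotypes. P-values were two-sided and adjusted with Benjamini-Hochberg over the 16201 genes tested, with a threshold of 0.05. Log2 CPM used a prior count of 2. Relations across livers were tested with 100000 permutations, and exactly within WT. The fit was also tested on simulated counts.

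The 10 members and the gene lists were chosen with earlier results of these data known. Named beside them are Pkd1, the 3 genes of each list that ranked first by p between Homo and WT, and the 5 most like H2-Bl and the member sum. Further genes were picked with their values in view. Lengths, gene order, overlaps and coding sequence came from GENCODE M21 (GRCm38), another build than the counts, so no coordinates were carried over. The alternatives were DESeq2 size factors, library totals, no filter, DESeq2 1.42.0, a replicate block and leaving out each library.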

Additional observations from a re-analysis of the deposited data

Results flagged for a closer look

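Within a genotype, 4 of 129 groups of values held a liver that stood apart by Dixon's criterion for its group size, and chance alone would give about 1 in 20. H2-Bl in WT 4 was at 0.3452 CPM, against 1.11 to 1.54 CPM in the other WT livers. Pirb in Het 3 was at 9.954 CPM, against 8.23 to 8.51 CPM in the other Het livers. Nfyc in WT 3 was at 17.93 CPM, against 14.97 to 15.8 CPM in the other WT livers. Gm50252 in WT 3 was at 0.146 CPM, and the other 5 WT livers were at 0 CPM.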

How the results depend on the processing

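The fold changes of the 10 members and their sum moved by less than the spread between mice under each alternative run, and no called value changed sign. Counts of calls moved more. Without the filter on low counts, edgeR called 2 members (H2-Bl and H2-T24) and 23 genes of the table in Het against WT, where the filtered fit called 1 and 9. DESeq2 called 62 genes in Homo against WT against 36 in edgeR, 32 genes and 2 members (H2-Bl and H2-T24) in Het against WT against 9 and 1, and 17 genes in Homo against Het against 5. Leaving out 1 library at a time gave 23 (without Homo 1) to 40 genes in Homo against WT and 2 to 3 members.

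The replicate numbers of the labels were also fitted as a replicate block. Of 12 pairs of livers with the same number, 2 correlated above 0.1 in their deviations from the group means (r from -0.09 to 0.15). Of 12 livers, 5 correlated best with their own number. Whether livers of the same number share more than the number cannot be told from these values. The numbers 5 and 6 occur only in WT, so WT 5 and WT 6 do not inform the contrasts of that fit. In it the log2 fold change of H2-Bl was 3.19 in Homo over WT and 2.85 in Het over WT. With the replicate block, 1 member (H2-Bl) and 19 genes were called in Homo against WT, 0 members in Het against WT, and 2 genes in Homo against Het. The cause was not tested. Depth limits H2-Bl and H2-T10 in WT, where single libraries held as few as 9.48 and 16.9 estimated counts.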
